A study of Rattus norvegicus with 6 samples.

Results

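The collagen genes of the neonatal rat ovary were taken as every gene whose symbol is Col, a number, the letter a and a number. Of 44 such symbols in the rat reference gene table, 18 had a matched probe on the array, through 25 probes, and the other 26 had none. Col4a2, Col5a2, Col17a1 and Col22a1 are among these 26, which were not examined. These 18 stand among 26903 names that were tested, and the probe with the highest mean signal over the arrays stood for each gene. Collagens are the main structural proteins of the extracellular matrix, built from chains that wind into a triple helix. Fibril-forming collagens give the ovarian stroma and its capsule their tensile framework, type IV collagen forms the network of the basement membranes that surround follicles and vessels, and smaller classes decorate fibrils, anchor membranes or span the cell surface. Tissue inflammation and wound repair are settings in which collagen synthesis is known to be regulated.

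Whole ovaries came from female Wistar rats on PND 7. Pups of the LPS group had been injected intraperitoneally with 0.05 mg/kg lipopolysaccharide of Salmonella enterica serotype Enteritidis on PNDs 3 and 5, and pups of the saline group with the same volume of saline at the same ages; no allele or further agent was used in either group. RNA was hybridized to single-colour Agilent arrays, 3 for LPS and 3 for saline, and several animals from more than one litter stood behind each group without being tied here to particular arrays. Levels are given throughout as the log2 of the processed spot signal relative to the 75th percentile of the same array, so that a difference of 1 is a 2-fold change, and levels of different genes are not compared because each comes from its own probe. In whole-ovary RNA, fewer cells of a type and less RNA per cell cannot be told apart.

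The arrays asked whether exposure to LPS in the first postnatal week changed ovarian transcript levels by PND 7. No collagen gene with a matched probe was called. At the criterion of a 2-fold difference with an unadjusted p under 0.05 from limma, 0 of 18 collagen genes were higher, against 0.517% of all names tested, and 0 of 18 were lower, against 1.00% of all names tested. After Benjamini-Hochberg adjustment over all probes, 0 of 18 collagen genes passed 0.05, as did 0% of all names, and the lowest adjusted p among the collagens was 0.290. Without a fold limit, 1 of 18, or 5.56%, had an unadjusted limma p under 0.05, beside 15.7% of all names. That gene was Col4a4, a chain of the specialised type IV network of mature basement membranes, and its signal was well above background on none of the 6 arrays.

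The remaining 17 genes gave a signal well above background on every array, and their differences were small. Their log2 fold changes, LPS minus saline, ran from -0.47 for Col8a1 to 0.23 for Col9a2, with a median of -0.06, while the median over all 18623 names measured in both treatments was 0.02. Of the 17, 6 differences were positive and 11 negative, and 54.2% of all measured names were positive. All 17 lay within 0.5 log2 units of zero, as did 92.0% of the 16295 names well above background on every array. The median size of the difference, regardless of sign, was 0.08 for the collagens and 0.15 for those 16295 names.

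**Figure D1:**
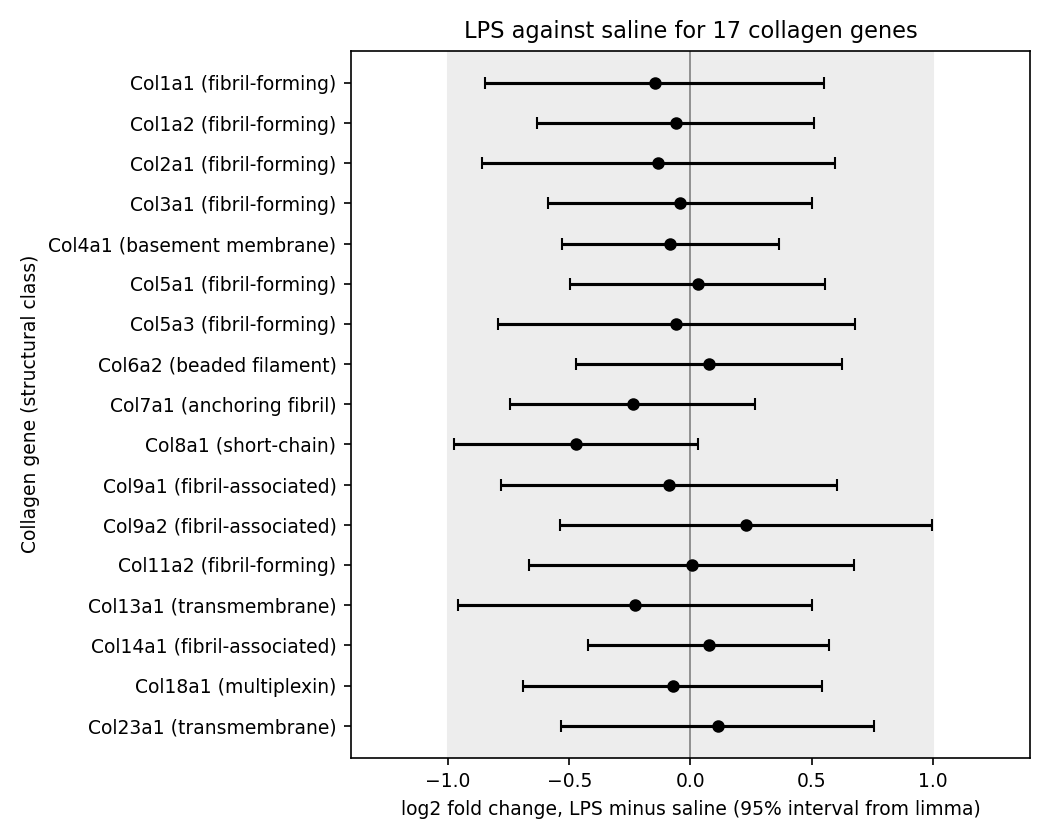
The log2 fold change of each measured collagen gene, LPS minus saline, with its 95% interval from limma (3 arrays in each treatment); genes are labelled with their structural class and the grey band marks a change of less than 2-fold either way. All 17 intervals cross zero and lie inside the band, from -0.98 at the lower end of Col8a1 to 1.00 at the upper end of Col9a2.

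The intervals show how much change the arrays could still hold. All 17 collagen genes had a 95% interval that included zero, and all 17 intervals stayed inside a 2-fold change in either direction, with the lowest bound at -0.98 and the highest at 1.00. These intervals are for single genes and are not widened for the number of genes. With the replicate number as a block, the interval of Col8a1 no longer included zero. The same held with quantile normalization, with dim probes left out and without LPS replicate 1. For Col9a2 it held without saline replicate 1. The Col18a1 difference was -0.60 with a block for the slide row, which sets LPS replicate 1 alone against saline. The Col1a1 difference was -0.73 without saline replicates 2 and 3, against saline replicate 1 alone. The count inside a 2-fold change also depended on the fit. It was 1 of 17 without normalization between arrays, 4 without saline replicates 2 and 3, 7 with a block for the slide row, 11 with an equal-variance test of each probe alone and 11 without saline replicate 3.

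Fibril-forming collagens were represented by 7 genes, of which 2 had positive and 5 negative differences, all between -0.15 and 0.03. Col1a1, which encodes the alpha 1 chain of type I collagen, had levels of 6.51, 6.45 and 6.26 on LPS replicates 1, 2 and 3 and of 7.14, 6.04 and 6.49 on saline replicates 1, 2 and 3. The saline arrays enclosed the LPS arrays, with saline replicate 1 the highest of the 6 and saline replicate 2 the lowest. The difference was -0.15 (SE 0.29, 95% interval -0.85 to 0.55, limma adjusted p = 0.936, n = 3 arrays in each treatment). A second Col1a1 probe gave 5.79, 5.73 and 5.70 for LPS, 5.98, 5.73 and 5.44 for saline, and a difference of 0.03 (SE 0.19).

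Col1a2, which encodes the partner alpha 2 chain of type I collagen, lay at 5.66, 5.90 and 5.75 after LPS and at 6.27, 5.74 and 5.48 after saline. As for Col1a1, the LPS values fell within the saline range and saline replicate 1 was highest. The difference was -0.06 (SE 0.24, interval -0.63 to 0.51, limma adjusted p = 0.982). Col3a1, the single chain of type III collagen and a companion of type I in distensible tissue, measured 6.83, 6.63 and 6.37 with LPS against 6.97, 6.34 and 6.66 with saline. The groups overlapped, and the difference of -0.04 (SE 0.23, interval -0.59 to 0.50) had a limma adjusted p of 0.988.

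Type V collagen chains are incorporated into type I fibrils and set fibril diameter. Col5a1 gave 2.43, 3.06 and 2.92 with LPS and 2.60, 2.83 and 2.89 with saline, with LPS replicate 1 the lowest of the 6. Its difference of 0.03 (SE 0.22, interval -0.50 to 0.56) was the highest of the fibril-forming class. For Col5a3 the levels were 1.87, 1.66 and 1.50 with LPS and 1.68, 2.33 and 1.19 with saline, so that saline replicates held both extremes, and the difference was -0.06 (SE 0.31).

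Col2a1 and Col11a2 encode chains of the fibrils of cartilage, and both gave a signal well above background in the ovary. Col2a1 was at -2.21, -2.99 and -3.38 with LPS and at -2.72, -2.78 and -2.68 with saline. Here the saline arrays were tight (SD 0.05) and the LPS arrays enclosed them (SD 0.59), and the difference was -0.13 (SE 0.30). Col11a2 showed the reverse, with LPS arrays at -2.47, -2.42 and -2.52 (SD 0.05) inside saline arrays at -1.95, -3.01 and -2.47 (SD 0.53), and a difference of 0.0047 (SE 0.28, interval -0.66 to 0.67). Its second probe did not overlap between the groups: it measured -3.08, -2.85 and -3.18 with LPS and -2.55, -2.67 and -2.42 with saline, a difference of -0.49 (SE 0.17) with an unadjusted limma p of 0.028 and an adjusted p of 0.277. The 2 probes of Col11a2 thus disagreed on whether the arrays of the treatments were separate.

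Col1a2 is shown with the 250 bases before its annotated start because it carries both of the classical core promoter words searched here, TATAAA and CCAAT. Col4a1 is shown because its start lies in a promoter shared head to head with the second type IV chain gene, and Col8a1 because it was the measured collagen whose groups did not overlap. Sequences are from RefSeq on the GRCr8 build, read 5′ to 3′ on the strand of the gene, with matches on either strand in capitals to the CCAAT box, to the TATA box as TATAAA and to the GC box as GGGCGG, none of which overlapped another here.
Col1a2, chr4:33518307-33518556, plus strand: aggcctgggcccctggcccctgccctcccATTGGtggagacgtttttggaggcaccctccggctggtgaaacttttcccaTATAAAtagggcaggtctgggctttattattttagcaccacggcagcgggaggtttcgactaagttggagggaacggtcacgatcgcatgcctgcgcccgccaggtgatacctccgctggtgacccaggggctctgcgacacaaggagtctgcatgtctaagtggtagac
Col4a1, chr16:84885347-84885596, plus strand: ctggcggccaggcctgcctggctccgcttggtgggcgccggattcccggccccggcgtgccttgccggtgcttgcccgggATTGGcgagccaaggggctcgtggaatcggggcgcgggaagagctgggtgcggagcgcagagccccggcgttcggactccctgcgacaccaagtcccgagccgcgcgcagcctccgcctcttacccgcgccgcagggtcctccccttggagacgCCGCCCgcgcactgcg
Col8a1, chr11:56246532-56246781, plus strand: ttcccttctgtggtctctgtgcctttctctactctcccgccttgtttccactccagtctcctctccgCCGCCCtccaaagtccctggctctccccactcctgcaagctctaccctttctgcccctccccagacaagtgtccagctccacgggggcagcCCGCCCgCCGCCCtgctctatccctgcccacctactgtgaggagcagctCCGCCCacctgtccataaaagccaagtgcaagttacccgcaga
Promoter windows were held for 13 of the 18 genes. CCAAT occurred in 3 of them (Col1a2, Col5a3 and Col4a1) and in 34.0% of all 33469 windows of that length, and TATAAA in 2 (Col1a2 and Col13a1) and in 12.9% of all. GGGCGG, the core of the GC box, occurred in 8 of 13 and in 30.5% of all. These are letter matches and were not tested for binding or for any relation to the levels.

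Fibril-associated collagens sit on the surface of fibrils, and 3 were measured. Col9a2, a chain of type IX collagen, had the largest positive difference of the set. It stood at -0.13, -0.42 and -0.17 with LPS and at 0.24, -0.78 and -0.87 with saline, so that saline replicate 1 lay above the LPS arrays and saline replicates 2 and 3 below them. The difference was 0.23 (SE 0.32, interval -0.54 to 1.00, limma adjusted p = 0.881). It was 0.59 without saline replicate 1, with an unadjusted p of 0.022 and an adjusted p of 0.191 from limma. It was 0.077 without saline replicate 2 and 0.028 without saline replicate 3. Another chain of the same molecule, Col9a1, measured -0.12, -0.71 and -0.96 with LPS and -0.15, -0.84 and -0.54 with saline, a difference of -0.09 (SE 0.29). In both treatments replicate 1 was the highest array for Col9a1. Its second probe gave -0.11 and its other probe stayed near background on every array. Col14a1, which encodes the chain of type XIV collagen, was at 3.72, 3.72 and 3.81 with LPS and at 4.0, 3.68 and 3.35 with saline, with differences of 0.08 (SE 0.21) and 0.05 on its 2 probes.

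Col4a1 encodes one of the ubiquitous type IV chains of basement membranes. It measured 2.82, 3.03 and 2.97 with LPS and 2.91, 3.29 and 2.86 with saline, with saline replicate 2 highest. The difference was -0.08 (SE 0.19, interval -0.53 to 0.36, limma adjusted p = 0.949). A second probe gave -0.19, 0.44 and 0.18 against 0.03, -0.22 and 0.0030, a difference of 0.21 (SE 0.21) in the other direction, with overlapping groups on both probes. Col4a4 had each LPS value below each saline value, with an unadjusted limma p of 0.039 and an adjusted p of 0.290, but at signals not well above background, for which no fold is given. Among the 6586 names not well above background on any array, 57.0% had LPS arrays below all saline arrays. Col18a1, whose chain lies in basement membranes and holds the endostatin fragment, was at 2.38, 3.19 and 3.15 with LPS and at 2.91, 2.92 and 3.11 with saline. LPS replicate 1 was the lowest array, and the difference was -0.07 (SE 0.26).

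Col6a2, a chain of the beaded filaments that lie around cells, measured 4.88, 5.21 and 4.99 with LPS and 5.32, 4.94 and 4.60 with saline, a difference of 0.08 (SE 0.23). Col7a1, the chain of the anchoring fibrils beneath epithelia, was at -0.77, -0.37 and -0.34 with LPS and at -0.28, -0.0030 and -0.49 with saline. LPS replicate 1 was the lowest array, and the difference was -0.24 (SE 0.21, limma adjusted p = 0.739). The transmembrane collagens lie in the plasma membrane with their helix outside the cell. Col13a1 measured -4.35, -3.94 and -3.74 with LPS and -4.36, -3.41 and -3.58 with saline, with both first replicates lowest and a difference of -0.23 (SE 0.30). For Col23a1 the levels were -3.32, -3.03 and -3.23 against -3.04, -3.86 and -3.01, and its 2 probes gave 0.11 (SE 0.27) and -0.24 (SE 0.28).

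Col8a1, whose chain builds the short-chain networks beneath endothelium, had the largest difference among the measured collagens. It lay at -3.45, -3.57 and -4.01 after LPS and at -3.04, -3.20 and -3.36 after saline. Every LPS array was below every saline array. The difference was -0.47 (SE 0.21, interval -0.98 to 0.03), with an unadjusted limma p of 0.061 and an adjusted p of 0.327. With the replicate number as a block the unadjusted limma p was 0.029 and the adjusted p 0.209. From limma, the unadjusted p was also 0.0096 with quantile normalization, 0.049 with dim probes left out and 0.040 without LPS replicate 1. The adjusted p from limma ran from 0.209 to 0.961 over the alternatives. It was the only 1 of the 17, or 5.88%, whose groups did not overlap, beside 11.1% of the 16295 names well above background on every array. With 3 arrays against 3, an exact two-sided permutation test cannot give a p below 0.1. The sign of the Col8a1 difference held under each of the 20 alternatives, from -0.63 without saline replicates 2 and 3 to -0.10 without normalization between arrays.

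**Figure D2:**
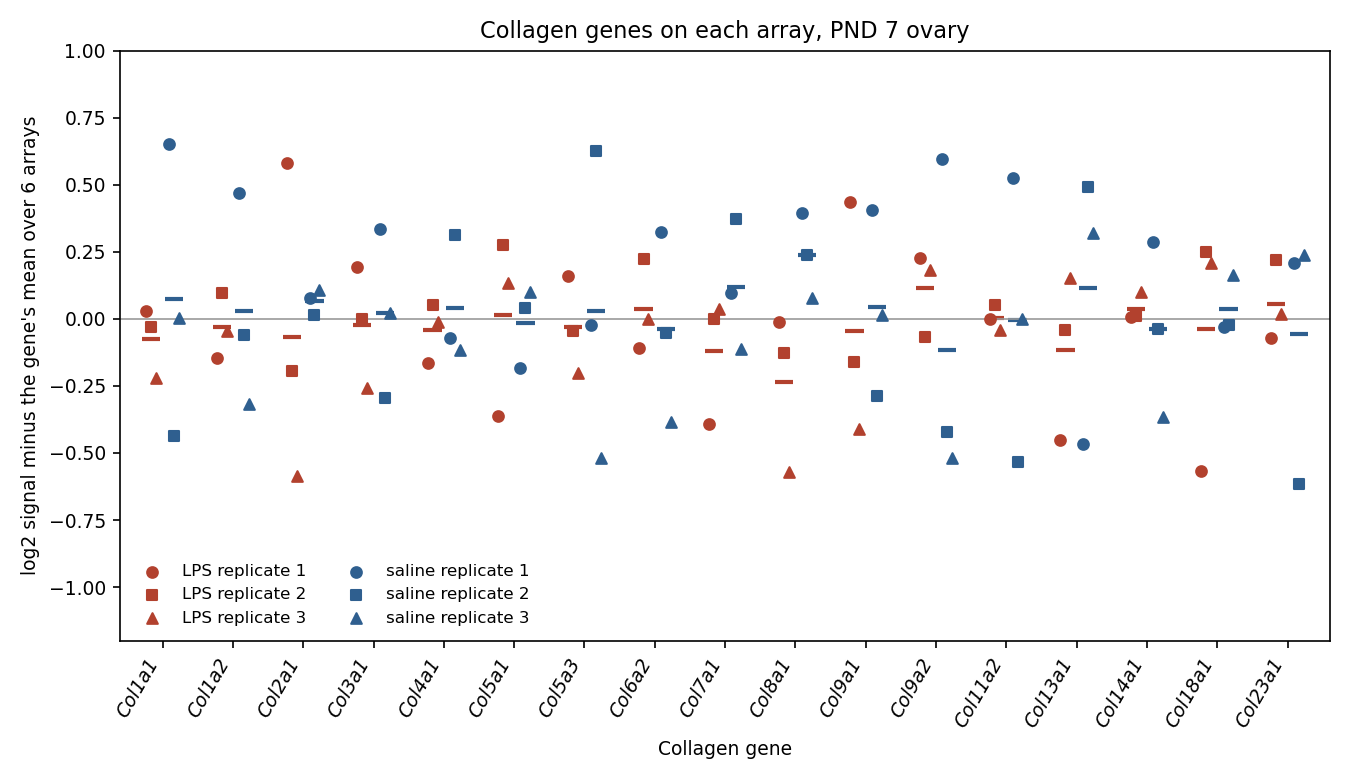
The level of each measured collagen gene on each of the 6 arrays, as log2 signal minus the mean of that gene over the arrays; red marks are LPS, blue marks saline, marker shapes are replicate numbers and bars are treatment means. Saline replicate 1 was the highest saline array in 9 of 17 genes, and the treatments separate in Col8a1 alone.

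Spread between arrays of one treatment was wide for the collagens. The within-treatment SD had a median of 0.33 over the 17 genes, from 0.18 to 0.45, against a median of 0.24 over the names well above background on every array. Saline replicate 1 was the highest saline array in 9 of the 17 genes, and the median deviation of its collagens from each gene's mean over the 6 arrays was 0.29. LPS replicate 1 was the lowest LPS array in 9 genes and the highest in 7. With fewer arrays, groups separate more often. Without LPS replicate 1 the groups did not overlap in 4 of the 17 genes, or 23.5%, against 31.2% of the 16295 names, and these were Col8a1 and Col2a1 on the lower side and Col5a1 and Col18a1 on the higher side. Without saline replicate 1 they were also 4, against 34.3% of those names, with Col13a1 lower and Col9a2 and Col14a1 higher beside Col8a1. These genes beyond Col8a1 were chosen after their values were seen.

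**Figure D3:**
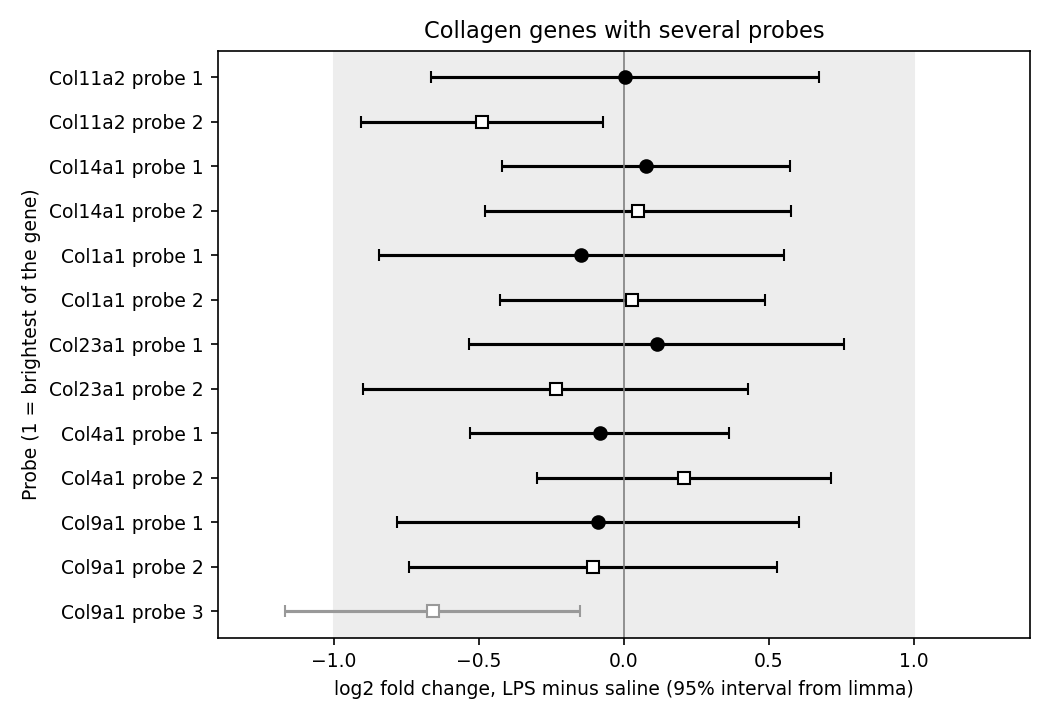
The log2 fold change, LPS minus saline, with its 95% interval from limma for every probe of the 6 collagen genes that had several; filled circles are the brightest probe, which stood for the gene, open squares are other probes, and grey marks a probe near background on every array. The intervals of the 2 measured probes of a gene overlap in every case, and the second probe of Col11a2 and the grey probe of Col9a1 are the ones whose interval does not reach zero.

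Collagen is made through a dedicated secretory pathway, in which chains are hydroxylated, folded, trimmed and cross-linked. Of 19 enzymes and chaperones of collagen folding and modification, 17 had a probe. None was called in either direction, beside 0.517% of all names called higher and 1.00% called lower. The 16 measured in both treatments had 7 positive and 9 negative differences and a median of -0.016. The largest difference was that of Fkbp14, a prolyl isomerase of the endoplasmic reticulum, at -3.42, -2.98 and -2.58 with LPS and -3.43, -3.24 and -3.66 with saline, a difference of 0.45 (SE 0.26). The groups overlapped only through LPS replicate 1.

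Of 13 genes for procollagen processing and cross-linking, 8 had a probe, with a median of 0.015 over 7 measured genes. None was called, beside 0.517% of all names called higher and 1.00% called lower. Loxl2, a lysyl oxidase that cross-links collagen, had the largest difference. It was at -0.69, -0.27 and -0.30 after LPS and at 0.42, 0.21 and -0.16 after saline, every LPS array below every saline array. The difference was -0.57 (SE 0.22), with an unadjusted p of 0.039 and an adjusted p of 0.290 from limma. The unadjusted limma p was 0.063 with the replicate number as a block, 0.108 without LPS replicate 1 and 0.107 without saline replicate 1.

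Of 12 matrix proteins that bind collagen, 9 had a probe. None was called, beside 0.517% of all names called higher and 1.00% called lower. The 8 measured had 6 positive and 2 negative differences and a median of 0.20. The largest fitted change was that of Kera, a small proteoglycan known from the cornea, which stood well above background on 2 LPS arrays and on no saline array, so that no fold is given. The largest among the measured was Ogn, a small leucine-rich proteoglycan picked after its values were seen, at 3.14, 3.05 and 2.50 with LPS and 2.62, 2.18 and 2.17 with saline. LPS replicate 3 lay below saline replicate 1, so that the groups overlapped, and the difference was 0.57 (SE 0.24, limma adjusted p = 0.309).

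Of 10 collagen receptors, 7 had a probe and none was called higher, beside 0.517% of all names. At the 2-fold criterion 1 of the 7 was called lower, beside 1.00% of all names. That gene was Itga1, the alpha 1 subunit of a collagen-binding integrin, at -1.02, -1.47 and -1.70 with LPS and -0.76, 1.03 and 0.32 with saline. Saline replicates 2 and 3 stood above the other 4 arrays. The difference was -1.59 (SE 0.46), with an unadjusted p of 0.011 and an adjusted p of 0.274 from limma, and it was -0.63 without saline replicates 2 and 3 and no longer passed the criterion. A block for the slide row also removed the call, at -1.22 (a fit that sets LPS replicate 1 alone against the 3 saline arrays). The median of the 6 measured receptors was -0.00021. Of 15 basement membrane partners, 9 had a probe and none was called, beside 0.517% of all names called higher and 1.00% called lower.

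Saline replicates 2 and 3 stood apart from the other arrays in markers of the adrenal gland, which lies near the ovary in the abdomen. All 8 adrenal cortex markers with a probe, of 8 listed, and all 9 adrenal medulla markers with a probe, of 10 listed, were higher on both of these arrays than on all 4 others. The summed level of the cortex markers was 5.24 to 16.0 on the LPS arrays and 6.24 on saline replicate 1, but 241 and 312 on saline replicates 2 and 3. For the medulla markers it was 3.51 to 5.98, 6.40, and 94.5 and 57.8. The summed level here is the signal relative to the array's 75th percentile, added over the genes of a list. On the LPS arrays most of the cortex sum came from Hsd3b1, at log2 levels of 1.84, 3.91 and 3.58. Cyp11b1, Mc2r and Akr1b7 were well above background on no LPS array.

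Of the 17 measured collagens, Col13a1 was the 1 gene higher on both saline replicates 2 and 3 than on all other arrays. The share of all names with this pattern was not taken, so the count is not read as particular to collagens. The Col13a1 difference of -0.23 became 0.35 without these 2 arrays, against saline replicate 1 alone. The summed level of the 18 collagens was 289 to 328 on the LPS arrays, 427 on saline replicate 1, and 276 and 298 on saline replicates 2 and 3. Most of this sum came from the probes of Col1a1, Col1a2 and Col3a1, so it says little of the other collagens. Without saline replicates 2 and 3, the median log2 fold change of the measured collagens was -0.25. The groups, now 3 arrays against 1, did not overlap in 10 of the 17 measured, or 58.8%, against 52.6% of the 16295 names. In that fit the lone saline array is assumed to vary like the LPS arrays.

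Endothelial markers, 7 of 8 with a probe, had summed levels of 7.47 to 8.78 with LPS, 7.72 on saline replicate 1, and 13.9 and 12.4 on saline replicates 2 and 3. Their part in the values of Col4a1, Col18a1 and Col8a1, collagens also made by vessels, was not tested. Ovarian stroma and mesenchyme markers, all 8 with a probe, had summed levels of 17.3 to 19.2 with LPS and 12.7 to 19.2 with saline, with saline replicate 3 lowest, and a median log2 fold change of 0.30 over 8 measured genes. Smooth muscle markers had summed levels of 42.2 to 61.4 with LPS and 28.0 to 48.6 with saline, again with saline replicate 3 lowest. Oviduct and epithelial markers, 6 of 8 with a probe, were high on both first replicates, with summed levels of 56.2 on LPS replicate 1 and 54.8 on saline replicate 1 against 21.7 to 34.8 on the other 4. The part of these lists in the spread of the collagens was not tested.

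The labelled tissue was present on all arrays. Granulosa cell markers had summed levels of 8.59 to 32.5 and oocyte markers of 16.7 to 46.7, both with LPS replicate 1 lowest. Macrophage markers, all 8 with a probe, had summed levels of 5.72 to 6.33 with LPS and 4.68 to 5.51 with saline. Markers of cartilage, in which type II, IX and XI collagens are best known, had summed levels of 0.353 to 0.579 over 6 genes. Skeletal muscle markers had summed levels of 1.39 to 2.36 over 7 genes, and kidney markers of 1.90 to 6.14 over 7 genes, both highest on the first replicates. Most of the muscle sum came from Tnni2. Most of the kidney sum came from Cdh16, at log2 levels of 2.02 on LPS replicate 1 and 2.43 on saline replicate 1. The muscle markers Myh8 and Myl1 and the kidney marker Slc34a1 were well above background on no array.

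**Figure D4:**
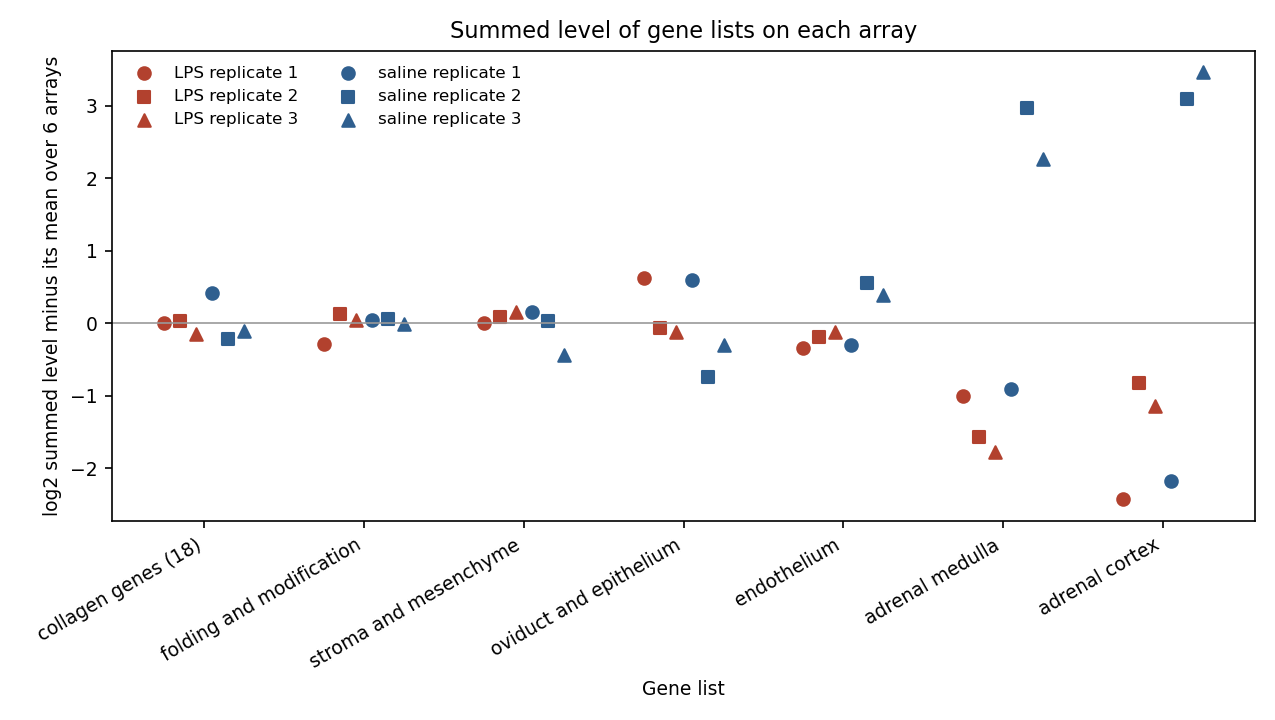
The summed level of the 18 collagen genes and of 6 other gene lists on each array, as log2 minus its mean over the 6 arrays; red marks are LPS, blue marks saline, and marker shapes are replicate numbers. The adrenal lists stand high on saline replicates 2 and 3, and the oviduct and epithelial list on both first replicates. The collagen sum, most of it from Col1a1, Col1a2 and Col3a1, stands highest on saline replicate 1.

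Counts of called collagens did not depend on how the arrays were processed. Under each of the 20 alternatives, 0 of 18 were higher and 0 lower at the 2-fold criterion and 0 passed 0.05 after adjustment. The direction of single collagens did depend on it: of 359 values of single genes under the alternatives, 60 had the opposite sign to the value given above. Without normalization between arrays the median of the 17 was 0.31, at a median of 0.33 over all names, so that the collagens moved with the rest of the array.

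**Figure D5:**
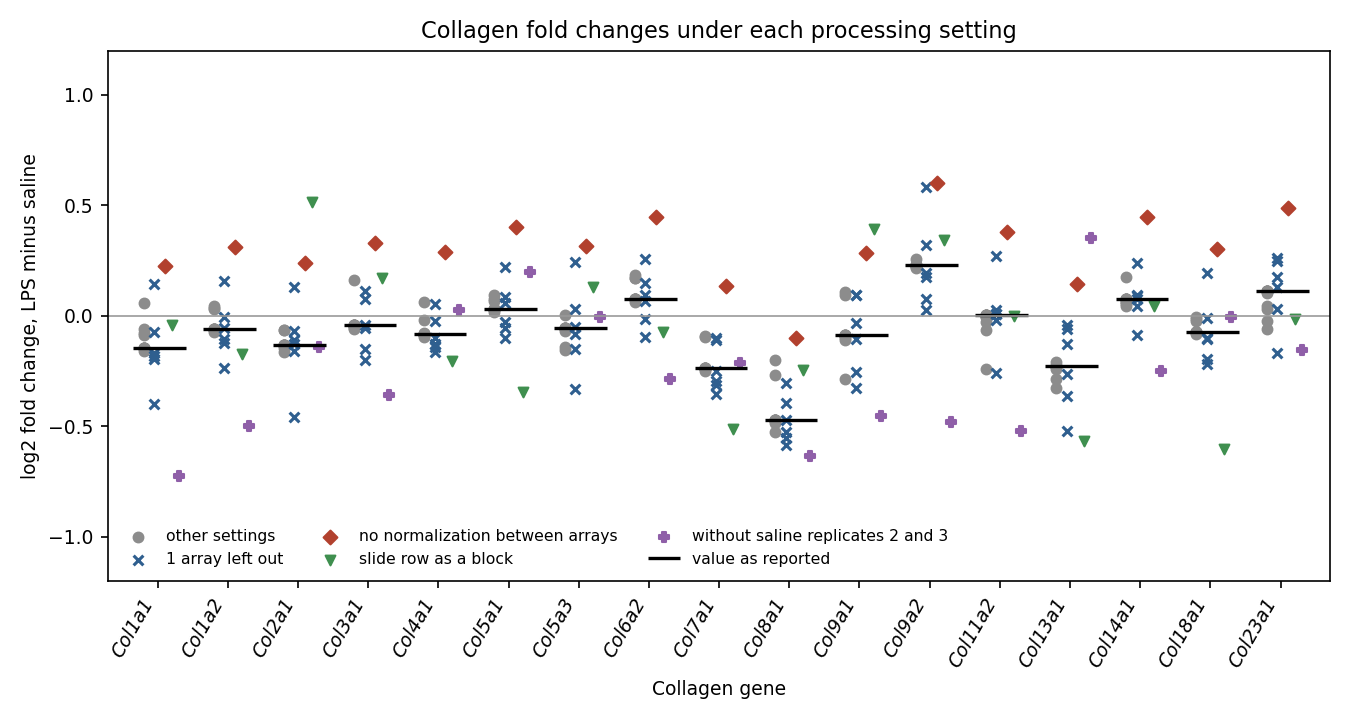
The log2 fold change of each measured collagen gene, LPS minus saline, under every processing setting; black bars are the values as reported, crosses leave out 1 array, and diamonds, triangles and plus signs are the settings named in the key. No value reaches a 2-fold change, and Col8a1 is the gene whose values all lie below zero.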

How the data were processed

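Ovarian RNA of 3 LPS and 3 saline arrays, grouped by the treatment and replicate number per the labels, was compared. The authors deposited spot intensity values from Agilent Feature Extraction 10.5.1.1, background-subtracted by that software and not scaled between arrays, with a surrogate for spots too dim to measure. They also deposited a table of the same intensity values, which differed from them by up to 0.497%. The submitters' processing notes name lumi, and the sources used here state no normalization or test for the arrays.

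From these intensities, log2 values minus the 75th percentile of each array were computed, after removal of non-uniform and population outlier spots and averaging of the spots of a probe. A probe was taken as well above background on an array where at least 50% of its spots were so flagged. limma 3.58.1 in R 4.3.3 compared the treatments over 30367 probes with Benjamini-Hochberg adjustment. The code was checked on simulated data with independent noise and changes larger than any collagen difference given here. That check did not cover small differences or deviations shared between arrays. Calls used a 2-fold difference and an unadjusted p under 0.05, the criterion of the study. The files' gene name column was empty, so RefSeq accessions were matched to a GRCr8 gene table, which named 17998 probes with 15154 symbols. A further 3094 RefSeq accessions found no match in that table. A collagen without a match may therefore still have a probe, and its level was then not examined.

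All 6 arrays lay on 1 slide, scanned once, with no saturated spot. Their 75th percentile lay between 2824 and 6754, with 66.3% to 76.0% of spots well above background, and the number of arrays limits the precision. Arrays of the same replicate number deviated together from their treatment means (correlations across probes of 0.296, 0.212 and 0.248), so the number was also fitted as a block. Replicates 2 and 3 of opposite treatments also correlated positively (0.155 and 0.068), and replicate 1 correlated negatively with both (-0.162 to -0.266). The labels give no pairing of the arrays, so the block rests on these same data and is an alternative only. The methods call the arrays biological replicates, and which animals each held was not used. Genes given one by one were the collagens with separate groups, the main fibril and basement membrane chains and the extremes of each structural class; all other measured collagens are given as well. Pathway genes were named where called or largest in their list, except for a gene that is not reported here. Members and lists were chosen with earlier results of these data known. Alternatives covered background correction, normalization, flagged and dim spots, probe choice, tests, blocks and each array left out in turn; leaving out both saline replicates 2 and 3 was added after the data were seen.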

Additional observations from a re-analysis of the deposited data

How the results depend on the processing

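Of 20 alternatives, 19 were planned. Under those 19 the counts of collagens called higher, lower or past the adjusted threshold stayed at 0, the usual count for 18 genes at the shares called over all names. Of 359 values of single collagens, 299 kept their sign. The replicate block changed no call and no sign. Col8a1 was -0.47 with it, and its unadjusted limma p went from 0.061 to 0.029. The median log2 fold change was 0.31 without normalization between arrays, where the median of all names was 0.33, and -0.25 without both saline replicates 2 and 3. It ran from -0.11 to 0.093 with 1 array left out, the latter without saline replicate 1. The number of the 18 collagens whose groups did not overlap was 2, against 22.6% of all names. It was 1 without background correction (7.59% of all names), 1 with quantile normalization (10.6%) and 11 without both saline replicates 2 and 3 (54.5%). It was also 1 with dim probes left out, for which the share over all names was not taken. With 1 array left out it was 2 to 5, the latter without LPS replicate 1 (42.7% of all names) or saline replicate 1 (40.5%). Counts with fewer arrays cannot be set against the count with 6. Tests and blocks leave this number as it is.

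Signs turned as follows, and the causes were not tested. With the mean over the probes of a gene, the log2 fold change was 0.062 for Col4a1, -0.24 for Col11a2 and -0.061 for Col23a1. Without background correction it was 0.045 for Col1a2, 0.094 for Col9a1, -0.028 for Col11a2 and -0.022 for Col23a1, and with normexp 0.034 for Col1a2, 0.11 for Col9a1 and -0.0058 for Col11a2. Without normalization between arrays, in which all names moved up, it was 0.23 for Col1a1, 0.31 for Col1a2, 0.24 for Col2a1, 0.33 for Col3a1, 0.29 for Col4a1, 0.32 for Col5a3, 0.14 for Col7a1, 0.28 for Col9a1, 0.14 for Col13a1 and 0.30 for Col18a1. Quantile normalization gave 0.057 for Col1a1, 0.029 for Col1a2, 0.16 for Col3a1, 0.0045 for Col5a3 and -0.064 for Col11a2, and scaling on probes well above background gave -0.0072 for Col11a2. With the slide row as a block, which sets LPS replicate 1 alone against saline, it was 0.51 for Col2a1, 0.17 for Col3a1, -0.35 for Col5a1, 0.13 for Col5a3, -0.072 for Col6a2, 0.39 for Col9a1 and -0.014 for Col23a1. Without both saline replicates 2 and 3 it was 0.028 for Col4a1, -0.29 for Col6a2, -0.48 for Col9a2, -0.52 for Col11a2, 0.35 for Col13a1, -0.25 for Col14a1 and -0.15 for Col23a1.

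With 1 array left out, the log2 fold change ran from -0.40 to 0.14 for Col1a1, from -0.24 to 0.16 for Col1a2, from -0.46 to 0.13 for Col2a1, from -0.20 to 0.11 for Col3a1 and from -0.16 to 0.052 for Col4a1. It ran from -0.10 to 0.22 for Col5a1, from -0.33 to 0.24 for Col5a3, from -0.098 to 0.26 for Col6a2 and from -0.33 to 0.094 for Col9a1. For Col9a2 it ran from 0.028 to 0.59. For Col11a2 it ran from -0.26 to 0.27, for Col14a1 from -0.087 to 0.24, for Col18a1 from -0.22 to 0.19 and for Col23a1 from -0.17 to 0.26. The SE of the measured collagens was 0.19 to 0.32 with 3 arrays in each treatment.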

Other observations

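Outside the adrenal lists, 4 marker genes of cell types were called at the 2-fold criterion, and none of them passed after adjustment in limma. Called higher were 1 of 8 stroma, 1 of 8 macrophage and 1 of 8 smooth muscle markers, beside 0.517% of all names. Called lower was 1 of 6 cartilage markers, beside 1.00% of all names. In the other marker lists none was called. These 4 genes were chosen after their values were seen. Tcf21, a transcription factor of ovarian stromal progenitors, was at -1.66, -2.00 and -2.20 on the LPS arrays and at -2.76, -3.38 and -2.96 on the saline arrays. Every LPS array was above every saline array, and the difference was 1.08 (SE 0.24, limma adjusted p = 0.274, 3 arrays in each treatment). Mrc1, the macrophage mannose receptor, which also binds collagen for uptake, was at -3.76, -3.39 and -2.50 with LPS and at -4.99, -3.98 and -4.21 with saline, a difference of 1.17 (SE 0.40, limma adjusted p = 0.274), again with every LPS array higher. It was well above background on 2 of 3 saline arrays. Lmod1, an actin-binding protein of smooth muscle, was called higher with LPS, with a limma adjusted p of 0.274. The groups overlapped, with LPS replicate 1 at -5.08 below saline replicate 2 at -5.00. Lmod1 stood well above background on 2 LPS arrays and on no saline array, so that no fold is given. Comp, a cartilage matrix protein that binds collagen fibrils, was at -4.02, -4.47 and -4.56 with LPS and at -4.03, -1.61 and -1.84 with saline. Saline replicates 2 and 3, the arrays with adrenal transcripts, were the high ones, so that the groups overlapped and the difference of -1.85 (SE 0.63) rested on them.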
